A study of Homo sapiens with 12 samples.

Results

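The comparison described here asked where the melanoma lines COLO858 and MMACSF differed in their response to 24 h of vemurafenib. For each gene the line difference was the change in COLO858 (24 h minus DMSO) minus the change in MMACSF, both on a log2(FPKM + 1) scale. FPKM is a count of fragments scaled to transcript length and to all mapped fragments. A positive line difference can come from a rise in COLO858 or from a fall in MMACSF, so the line that moved is given for each group of genes. The comparison used 8 of the 12 libraries of the series and tested 13047 of the 23273 genes listed, those with a mean of at least 1 FPKM in any of the 4 groups. Small RNA genes were left out.

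The 4 groups were COLO858 and MMACSF cells in DMSO, the vehicle, or in 0.2 μM vemurafenib for 24 h, with 2 libraries each. The time in DMSO is not given in the labels. Both are established human melanoma lines, and the study used MMACSF as a control for drug adaptation of COLO858. COLO858 was grown in RPMI 1640 and seeded at 20% confluency, and MMACSF was grown in DMEM/F12 and seeded at 33%, so medium and density cannot be told apart from the line. Replicates came from separate plates of the same line, and p-values therefore measure only the spread between such plates. The values of the lines come in separate tables, and a level in one line is set beside a level in the other as the tables list them.

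Vemurafenib inhibits mutant BRAF, the kinase that drives the MAPK pathway in many melanomas. Loss of ERK signaling takes away the transcripts of feedback inhibitors such as the DUSP phosphatases and Sprouty proteins and of cyclin D1, and cells leave the cell cycle. In melanocytic cells it also lets the lineage factor MITF and its pigment genes recover, and some melanoma cells move toward a neural crest-like state marked by NGFR. Secreted matrix proteins, their integrin receptors and growth factors are part of such adaptation.

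In the 8 libraries between 11529 and 11859 genes reached 1 FPKM, and the depth is unknown because the files give FPKM only. Replicates of a group correlated at 0.979 to 0.986. The small RNA genes made up 20.8% to 27.3% of the summed FPKM in the replicate 1 libraries and 33.6% to 50.6% in the replicate 2 libraries. Of 9 markers of melanoma and melanocytes, 7 reached 1 FPKM in DMSO-treated COLO858 and 9 in MMACSF. MLANA, a melanosome protein, was at 0.438 and 0.425 FPKM in DMSO-treated COLO858 against 962 and 1126 FPKM in MMACSF. Of 8 immune markers only CD68 reached 1 FPKM in either line, and of 6 endothelial markers 0 did. The 8 fibroblast markers summed to 9.83 to 12.6 FPKM in DMSO and 18.6 to 21.8 FPKM in drug in COLO858, and to 58.0 to 79.3 and 45.3 to 53.6 FPKM in MMACSF. In bulk RNA, fewer cells of a type and less RNA per cell cannot be told apart.

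The lines shared much of their response. Across the 13047 genes the 24 h changes of the lines correlated at 0.663 (Pearson) and 0.627 (Spearman), as a description across genes that share their libraries. In COLO858 1025 genes rose (7.86%) and 1236 fell (9.47%) at a limma adjusted p under 0.01, the q threshold of the study. In MMACSF 647 rose (4.96%) and 709 fell (5.43%). Of these, 330 rose in both lines, which was 32.2% of the rises in COLO858 and 51.0% of those in MMACSF. Another 474 fell in both, 38.3% of the falls in COLO858 and 66.9% of those in MMACSF. All these calls rest on a spread estimated from both lines together. With MMACSF fitted alone by limma 0 genes rose and 0 fell at this threshold, though 1641 had an adjusted p under 0.05. With COLO858 fitted alone 347 rose and 528 fell.

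The line difference itself passed the threshold for 271 genes (2.08%). It was positive for 127 (0.973%) and negative for 144 (1.10%). The smallest difference called was 0.99 and the median size was 1.77 on the log2 scale. With the replicate number as a block in the model, 1106 genes were positive (8.48%) and 1160 negative (8.89%), and these held all 271. The block does not change the line difference of a gene. With any 1 library left out the total was 27 to 83, and 246 of the 271 lost the call without at least 1 of the 8 libraries, with fewer samples in the fit. In the plot of the change in one line against the other, the called genes lie along the vertical axis more than along the horizontal.

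**Figure D1:**
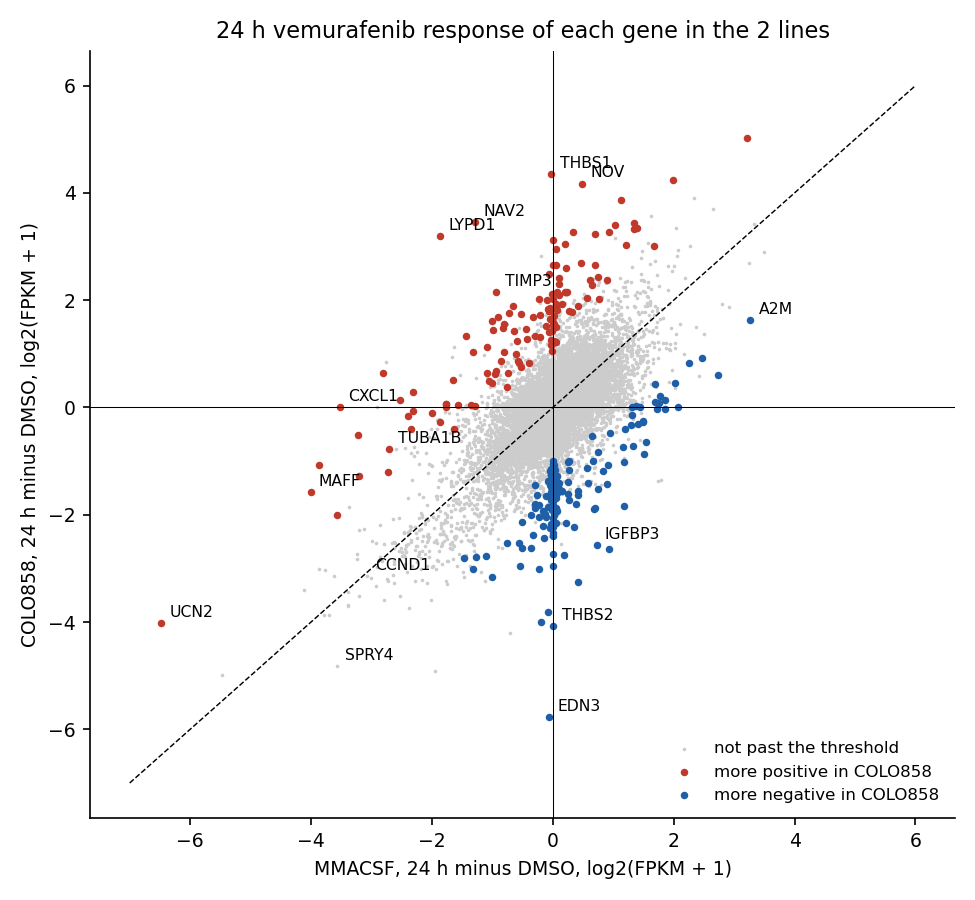
Change from DMSO to 24 h in vemurafenib in MMACSF (horizontal axis) and COLO858 (vertical axis), both in log2(FPKM + 1), 1 point per gene for 13047 genes. The 127 red and 144 blue points passed the line difference threshold, and the dashed line marks equal change in both lines.

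COLO858 moved alone for 179 of these genes and MMACSF for 48. A line is said to have moved alone where its own change passed the threshold and that of the other line did not. By that rule 105 of the 271 genes fell in COLO858 alone, and 74 rose in COLO858 alone. In MMACSF alone 24 genes fell and 24 rose. A further 17 passed the threshold in opposite directions, 15 rose in both lines by different amounts, and 11 fell in both by different amounts. Of the 227 genes that moved in 1 line alone, COLO858 held 78.9%. Over all genes tested it held 72.9%, 1440 of 1975, so in this fit the predominance of COLO858 among the 271 was near that of all genes that moved alone. With the replicate block 169 of the 227 kept their class, and in the others the second line also passed its threshold. By the classes of that fit COLO858 held 81.1% of the 169 and 63.6% of the 4396 genes of all tested that moved alone, which are further apart. MOCS1, a molybdenum cofactor enzyme, was the 1 gene past the line difference threshold with neither line past its own.

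Many of the genes that moved alone were near absent in the other line. Of the 105 that fell in COLO858 alone, 69 were below 1 FPKM in both groups of MMACSF. The same was true of 31 of the 74 that rose in COLO858 alone. Of the 24 that fell in MMACSF alone 8 were below 1 FPKM in both groups of COLO858, and of the 24 that rose there 12 were. A gene below 1 FPKM can show little change on this scale. When only the 11301 genes with 1 FPKM or more in a group of each line were tested, 51 were more positive and 34 more negative in COLO858.

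**Figure D2:**
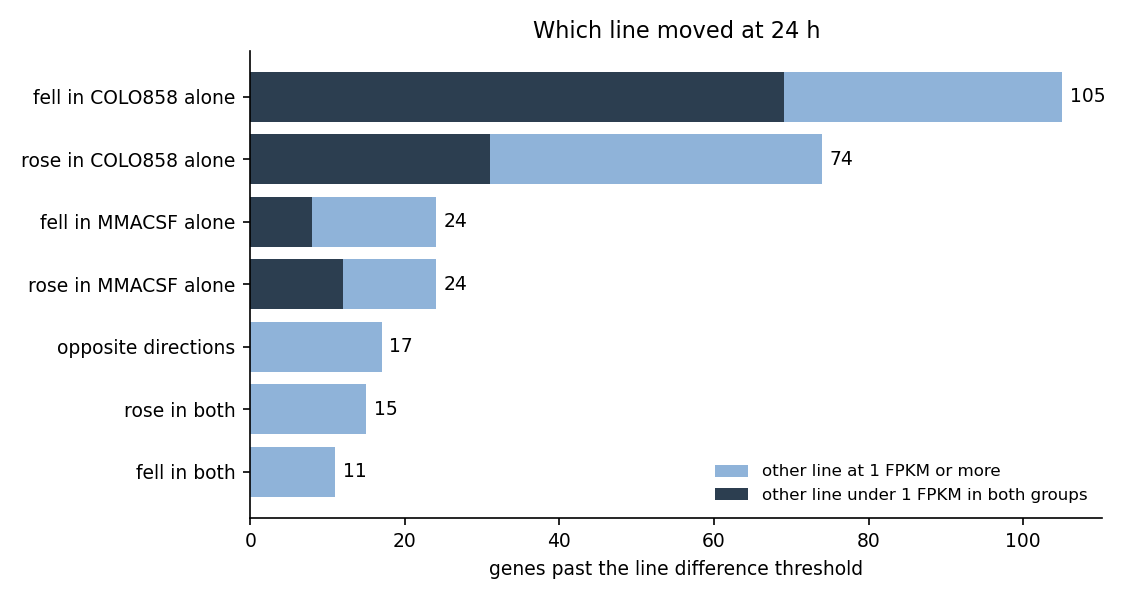
Number of genes past the line difference threshold by which line moved. The dark part of the first 4 bars marks genes below 1 FPKM in both groups of the line that did not move: 69 of 105, 31 of 74, 8 of 24 and 12 of 24.

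The genes that moved in opposite directions were expressed in both lines, apart from B3GAT1, which stayed below 1 FPKM in COLO858. The largest was LYPD1 (chromosome 2, 133400859 to 133429152, GRCh37), a GPI-anchored protein of the Ly6 family that binds nicotinic acetylcholine receptors. It was at 1.05 and 1.27 FPKM in the DMSO libraries of COLO858 and at 20.4 and 17.1 FPKM at 24 h. MMACSF started near the level COLO858 reached, at 14.6 and 15.3 FPKM, and ended at 2.95 and 3.89 FPKM. The drug and DMSO libraries did not overlap in either line, which the choice of the gene by these same libraries made likely. The line difference was 5.05 ± 0.25 (SE, adjusted p = 0.00025).

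NAV2 (chromosome 11, 19372271 to 20143147), a neuron navigator protein that binds the cytoskeleton, had the same pattern. COLO858 went from 0.987 and 1.11 to 20.8 and 22.1 FPKM and MMACSF from 31.2 and 28.9 to 10.1 and 13.7 FPKM, a line difference of 4.73 ± 0.25 (SE, adjusted p = 0.000299). TIMP3 (chromosome 22, 33197691 to 33259028) is an inhibitor of metalloproteinases that is bound to the matrix. It rose from 60.0 and 63.4 to 269 and 287 FPKM in COLO858 and fell from 203 and 227 to 105 and 119 FPKM in MMACSF, with a line difference of 3.09 ± 0.18 (SE, adjusted p = 0.000404). For both genes the order of the lines under DMSO was turned around at 24 h. PLAT (chromosome 8), tissue plasminogen activator, rose from 30.4 and 32.2 to 93.7 and 94.8 FPKM in COLO858 and fell from 379 and 386 to 223 and 213 FPKM in MMACSF. The line difference came to 2.37 ± 0.15 (SE, adjusted p = 0.000688), and MMACSF stayed the higher line.

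Other members of this group moved the other way around. IGFBP3 (chromosome 7, 45951844 to 45961473), a secreted binding protein for insulin-like growth factors, fell in COLO858 from 36.2 and 37.0 to 5.69 and 5.02 FPKM. MMACSF had 59.5 and 56.5 FPKM under DMSO and 96.9 and 95.9 FPKM at 24 h, so the line difference was −3.29 ± 0.18 (SE, adjusted p = 0.000343). KIAA1199, now named CEMIP and involved in hyaluronan breakdown, fell from 8.35 and 8.21 to 1.68 and 1.52 FPKM in COLO858. In MMACSF it rose from 0.529 and 0.624 to 2.52 and 2.57 FPKM, a line difference of −3.01 ± 0.19 (SE, adjusted p = 0.000673). No drug library of either gene lay within the range of its DMSO libraries, which the choice of genes by these same libraries made likely.

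**Figure D3:**
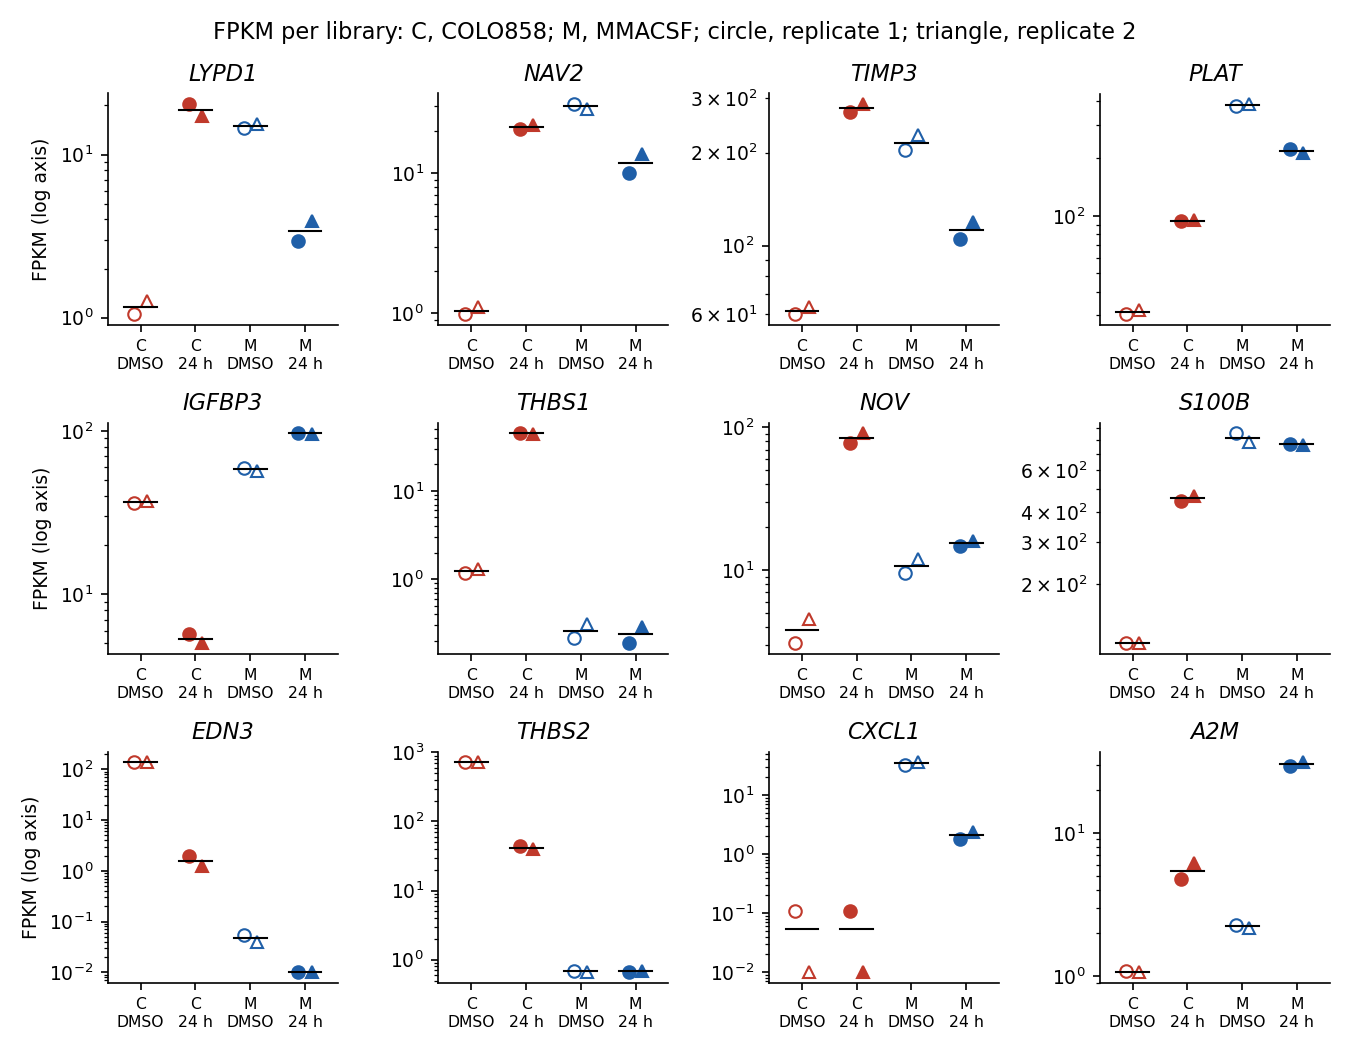
FPKM (log axis, values under 0.01 drawn at 0.01) of 12 genes in each of the 8 libraries, COLO858 in red and MMACSF in blue, open symbols for DMSO and filled for 24 h, circles for replicate 1 and triangles for replicate 2, bars for the mean. LYPD1, NAV2, TIMP3 and PLAT rose in COLO858 and fell in MMACSF, and IGFBP3 did the reverse.

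The leading genes that fell in COLO858 alone were EDN3, THBS2, SLC27A3, NPR1 and TGFA. EDN3 (chromosome 20, 57875498 to 57901047), an endothelin that acts on melanocyte precursors, was at 138 and 139 FPKM in DMSO-treated COLO858 and 1.95 and 1.22 FPKM at 24 h. In MMACSF it did not exceed 0.0536 FPKM, so the line difference of −5.70 ± 0.24 (SE, adjusted p = 0.000212) was that of COLO858 alone. THBS2 (chromosome 6, 169615875 to 169654145), an extracellular matrix thrombospondin, went from 725 and 723 to 44.040 and 39.7 FPKM in COLO858. It stayed between 0.659 and 0.697 FPKM in MMACSF, and the line difference was −4.09 ± 0.19 (SE, adjusted p = 0.000212).

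NPR1, a receptor for natriuretic peptides, fell from 34.5 and 27.8 to 1.63 and 0.967 FPKM in COLO858 and was under 0.1 FPKM or listed at 0 in MMACSF. This gave a line difference of −3.73 ± 0.26 (SE, adjusted p = 0.000883). SLC27A3, of the fatty acid transport protein family, and TGFA, a ligand of the EGF receptor, were expressed in both lines. SLC27A3 went from 81.1 and 58.1 to 3.39 and 3.29 FPKM in COLO858 and from 6.40 and 3.34 to 5.09 and 3.02 FPKM in MMACSF, a line difference of −3.81 ± 0.44 (SE, adjusted p = 0.00385). The drug and DMSO libraries of SLC27A3 overlapped in MMACSF and not in COLO858. TGFA went from 45.6 and 56.3 to 3.62 and 5.32 FPKM in COLO858 while MMACSF had 1.81 and 1.95 FPKM under DMSO and 2.84 and 2.80 FPKM at 24 h, a line difference of −3.67 ± 0.28 (SE, adjusted p = 0.0011). With the block the rise of TGFA in MMACSF passed the threshold, at an adjusted p of 0.00965. RGS5, a regulator of G protein signaling, fell from 17.6 and 28.1 to 2.44 and 3.10 FPKM in COLO858. Its values in MMACSF were 1.18 and 0.952 FPKM under DMSO and 2.48 and 3.48 FPKM at 24 h, and the line difference was −3.57 ± 0.35 (SE, adjusted p = 0.00226). The rise of RGS5 in MMACSF passed with the block as well (0.00269). After 24 h TGFA and RGS5 stood at like levels in the lines, within a few FPKM of each other.

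SYTL5, a synaptotagmin-like protein of vesicle transport, and FGFRL1, a receptor that binds fibroblast growth factors and lacks a kinase domain, completed the leading falls. SYTL5 went from 25.9 and 33.0 to 2.53 and 3.34 FPKM in COLO858 and was listed at 0 in every MMACSF library, with a line difference of −2.95 ± 0.25 (SE, adjusted p = 0.00141). FGFRL1 went from 88.8 and 72.3 to 12.2 and 10.1 FPKM in COLO858. Its MMACSF libraries were at 4.29 and 2.92 and then 4.80 and 3.58 FPKM, and the line difference was −2.92 ± 0.31 (SE, adjusted p = 0.00281).

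The leading genes that rose in COLO858 alone were THBS1, NOV, PADI2, TRPM1 and FAM129A. THBS1 (chromosome 15, 39873280 to 39891667), thrombospondin-1, rose from 1.18 and 1.31 to 45.2 and 44.2 FPKM in COLO858. In MMACSF all 4 libraries were below 1 FPKM, at 0.214 and 0.307 and at 0.188 and 0.288, and the line difference was 4.37 ± 0.20 (SE, adjusted p = 0.000212). THBS1 and THBS2 encode related proteins and moved in opposite directions in the same COLO858 libraries. NOV, now CCN3, a matricellular protein of the CCN family, rose from 3.07 and 4.52 to 78.0 and 91.5 FPKM in COLO858 and stood at 9.60 and 11.9 and then 14.7 and 16.0 FPKM in MMACSF. The line difference of NOV was 3.69 ± 0.28 (SE, adjusted p = 0.00109), and its change in MMACSF, 0.48, did not pass the threshold (adjusted p = 0.126, with the block 0.00379, a rise in both lines).

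PADI2, an enzyme that converts arginine to citrulline, rose from 0.0908 and 0.116 to 7.71 and 9.54 FPKM in COLO858 and was listed at 0 in all MMACSF libraries. The resulting line difference was 3.12 ± 0.19 (SE, adjusted p = 0.000492). FAM129A, an endoplasmic reticulum stress-responsive protein also called Niban, went from 0.516 and 0.537 to 9.86 and 11.9 FPKM in COLO858 and stayed under 1 FPKM in MMACSF, a line difference of 2.91 ± 0.21 (SE, adjusted p = 0.000935). TRPM1, a cation channel of melanocytes, had the opposite setting. COLO858 rose from 0.0758 and 0.306 to 10.7 and 10.0 FPKM, and MMACSF held 290.4 and 317 FPKM under DMSO and 340.3 and 433 FPKM at 24 h. Its line difference was 2.92 ± 0.24 (SE, adjusted p = 0.00135). Of the 74 genes that rose in COLO858 alone, 21 had a listed level in DMSO-treated MMACSF at or above the level COLO858 reached. The same share was not worked out for all 685 tested genes that rose in COLO858 alone, so whether 21 is many is unknown. The levels come from separate tables.

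Genes that fell in MMACSF alone included a chemokine and a metallothionein. CXCL1 (chromosome 4, 74735110 to 74737025), which attracts neutrophils, fell from 32.6 and 36.1 to 1.77 and 2.38 FPKM in MMACSF and was under 1 FPKM in all COLO858 libraries, a line difference of 3.53 ± 0.23 (SE, adjusted p = 0.000688). MT2A, a metal-binding metallothionein, fell from 333 and 319 to 42.0 and 27.6 FPKM in MMACSF. COLO858 had 101 and 77.9 FPKM under DMSO and 73.1 and 52.4 FPKM at 24 h, its groups not overlapping but its change not past the threshold (adjusted p = 0.15, with the block 0.00751), and the line difference was 2.71 ± 0.34 (SE, adjusted p = 0.00523). MT2A has near-identical family members whose reads the counting may have split.

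UBAP1L, ANKS1A and SLC16A6 also fell in MMACSF alone. UBAP1L went from 26.0 and 19.6 to 2.05 and 2.73 FPKM in MMACSF, and its COLO858 groups overlapped, at 14.0 and 7.75 and 21.8 and 13.1 FPKM, with an adjusted p of 0.17 and of 0.00922 with the block. The line difference came to 3.46 ± 0.46 (SE, adjusted p = 0.00651). ANKS1A, an adaptor with ankyrin repeats, went from 90.2 and 86.9 to 14.3 and 14.8 FPKM in MMACSF and lay between 9.25 and 11.4 FPKM in COLO858, a line difference of 2.67 ± 0.19 (SE, adjusted p = 0.000958). SLC16A6, of the monocarboxylate transporter family, fell from 22.5 and 32.2 to 0.816 and 1.0144 FPKM in MMACSF and from 2.00 and 3.19 to 0.639 and 0.738 FPKM in COLO858. The line difference of SLC16A6 was 2.80 ± 0.32 (SE, adjusted p = 0.00377), and its change in COLO858 was −1.07 (adjusted p = 0.0103, with the block 0.000677).

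The leading rises in MMACSF alone were DCLK1, PCSK5, APOD, ELSPBP1 and CORO2A, and for 4 of the 5 the class changed with the replicate block. DCLK1, a microtubule-associated kinase, rose from 3.05 and 3.58 to 9.83 and 12.8 FPKM there and was at 3.64 and 5.71 and then 2.04 and 2.12 FPKM in COLO858, a line difference of −2.36 ± 0.31 (SE, adjusted p = 0.00629). PCSK5, a proprotein convertase, rose from 4.02 and 3.60 to 12.4 and 13.7 FPKM in MMACSF. It went from 2.51 and 2.42 to 1.18 and 1.27 FPKM in COLO858, and the line difference was −2.19 ± 0.21 (SE, adjusted p = 0.00209). APOD, a lipid-binding lipocalin, rose from 10.7 and 10.6 to 72.1 and 81.8 FPKM in MMACSF and went from 2.58 and 2.68 to 4.55 and 4.50 FPKM in COLO858, a change of 0.61 with an adjusted p of 0.0164. This gave a line difference of −2.13 ± 0.20 (SE, adjusted p = 0.00209). CORO2A, a coronin, and ELSPBP1, a sperm-binding protein, had line differences of −2.03 and −2.07, and ELSPBP1 was listed at 0 in all COLO858 libraries. With the block DCLK1, PCSK5 and CORO2A also fell in COLO858, at adjusted p values of 0.00163, 0.00224 and 0.000962, and so moved in opposite directions. APOD rose in both lines with the block (0.000965 in COLO858).

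Among the genes that fell in both lines, 6 fell more in MMACSF and 5 more in COLO858. UCN2, a peptide of the corticotropin-releasing family, fell from 159 and 136 to 8.98 and 7.34 FPKM in COLO858 and from 136 and 126 to 0.857 and 0.179 FPKM in MMACSF. The resulting line difference was 2.46 ± 0.32 (SE, adjusted p = 0.00637). PFKFB4, a regulator of glycolysis whose annotated gene overlaps UCN2 on the same strand, fell from 75.1 and 63.2 to 16.5 and 16.5 FPKM in COLO858 and from 39.5 and 35.9 to 2.35 and 2.17 FPKM in MMACSF. Reads in the overlap can count for either gene. MAFF, a small Maf transcription factor, fell from 158 and 138 to 8.79 and 7.74 FPKM in MMACSF and from 13.3 and 9.33 to 3.13 and 3.02 FPKM in COLO858, a line difference of 2.43 ± 0.27 (SE, adjusted p = 0.00325).

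LPXN, a focal adhesion protein of the paxillin family, fell from 95.9 and 110.3 to 9.25 and 11.5 FPKM in MMACSF and from 7.83 and 8.19 to 2.36 and 3.06 FPKM in COLO858, and the line difference was 1.91 ± 0.25 (SE, adjusted p = 0.006). TUBA1B, an alpha tubulin, fell in MMACSF from 413 and 389 to 58.5 and 62.8 FPKM and in COLO858 from 710.0 and 666 to 397 and 408 FPKM, a line difference of 1.94 ± 0.15 (SE, adjusted p = 0.00114). TNFAIP3 (chromosome 6, 138188351 to 138204451), also called A20 and an inhibitor of NF-kB signaling, fell more in COLO858. It went from 23.8 and 25.9 to 2.11 and 1.72 FPKM in that line and from 2.90 and 2.88 to 0.841 and 1.03 FPKM in MMACSF, with a line difference of −2.14 ± 0.22 (SE, adjusted p = 0.00262).

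The promoters of 3 of these genes are shown because CXCL1 and TNFAIP3 are known NF-kB target genes whose main fall was in different lines, and LYPD1 had the largest positive line difference. Each sequence is the 250 bases before the gene start from RefSeq on GRCh38.p14, 5′ to 3′ on the gene's strand. Capitals mark the match to a motif, searched on both strands.
LYPD1: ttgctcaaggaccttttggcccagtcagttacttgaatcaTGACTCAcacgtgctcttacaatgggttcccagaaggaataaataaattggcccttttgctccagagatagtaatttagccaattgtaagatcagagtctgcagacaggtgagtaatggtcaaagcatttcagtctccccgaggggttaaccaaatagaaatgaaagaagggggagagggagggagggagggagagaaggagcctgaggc
CXCL1: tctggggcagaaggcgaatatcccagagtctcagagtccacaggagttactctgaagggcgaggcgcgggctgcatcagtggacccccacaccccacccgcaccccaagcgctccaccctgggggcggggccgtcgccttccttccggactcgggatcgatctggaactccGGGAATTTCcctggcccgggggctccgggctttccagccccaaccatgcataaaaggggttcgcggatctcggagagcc
TNFAIP3: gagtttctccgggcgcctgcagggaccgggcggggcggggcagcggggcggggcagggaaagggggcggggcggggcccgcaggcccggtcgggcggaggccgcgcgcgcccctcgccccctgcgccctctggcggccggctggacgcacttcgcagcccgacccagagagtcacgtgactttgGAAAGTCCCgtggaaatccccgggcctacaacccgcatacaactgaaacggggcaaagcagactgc
The LYPD1 window (chr2:132671527-132671776, minus strand) holds the AP-1 motif TGACTCA 210 bases before the start. The CXCL1 window (chr4:73869143-73869392, plus strand) holds the NF-kB motif GGGAATTTC 79 bases before the start, and the TNFAIP3 window (chr6:137867009-137867258, plus strand) holds GGGACTTTC on the opposite strand, 66 bases before it. Promoters were matched for 10219 of the genes tested, and of these 2.49% held TGACTCA, 0.303% GGGAATTTC and 0.235% GGGACTTTC. The genes and motifs were chosen after their values were seen, and a match is a description of the letters only. A promoter was matched for 192 of the 271 called genes (70.8%), and no test over them was run. Of these, DCLK1, ECM1, F2RL2, IL11, LPXN, LYPD1, MT2A and UCN2 held TGACTCA. CXCL1 alone held GGGAATTTC and TNFAIP3 alone GGGACTTTC.

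Among the genes that rose in both lines, 12 rose more in COLO858 and 3 more in MMACSF. Of genes of the melanocyte and glial lineages, EDNRB (chromosome 13, 78469616 to 78549664), the endothelin receptor of melanocytes, rose from 7.46 and 9.65 to 164 and 193 FPKM in COLO858. In MMACSF it rose from 53.5 and 67.2 to 225 and 256 FPKM, and the line difference was 2.25 ± 0.25 (SE, adjusted p = 0.00349). EDNRB is a receptor for endothelin-3, the product of EDN3, which fell in COLO858. DCT, an enzyme of melanin synthesis, rose from 252 and 283 to 2788 and 3042 FPKM in COLO858 and from 758 and 869 to 1940.0 and 2203 FPKM in MMACSF, a line difference of 2.10 ± 0.18 (SE, adjusted p = 0.00146). MBP, myelin basic protein, rose from 0.639 and 0.511 to 14.0 and 13.8 FPKM in COLO858 and from 192 and 181 to 314 and 294 FPKM in MMACSF. The line difference of MBP was 2.54 ± 0.18 (SE, adjusted p = 0.000935).

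MGP, a matrix protein that inhibits calcification, rose from 0.0752 and 0.202 to 14.5 and 16.6 FPKM in COLO858 and from 2.11 and 2.08 to 6.49 and 5.19 FPKM in MMACSF, with a line difference of 2.72 ± 0.24 (SE, adjusted p = 0.00156). SNAI2, a transcription factor of the neural crest, rose by 3.35 in COLO858 and 1.40 in MMACSF, and STK32A, a kinase, by 3.32 and 1.34. A2M, a protease inhibitor of blood plasma, rose more in MMACSF, from 2.28 and 2.18 to 29.1 and 31.2 FPKM. COLO858 went from 1.08 and 1.06 to 4.75 and 6.18 FPKM, and the line difference was −1.64 ± 0.23 (SE, adjusted p = 0.00823). ACTA2, smooth muscle actin, likewise rose more in MMACSF, by 2.48 against 0.92, a line difference of −1.55 ± 0.23 (SE, adjusted p = 0.00989).

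Gene lists describe how functional groups took part. For each list the number past the line difference threshold is given, with the number under the replicate block and the median line difference. The median of all genes was −0.01 for the line difference, 0.06 for COLO858 and 0.06 for MMACSF. The shares to read these counts against are 0.973% positive and 1.10% negative, or 8.48% and 8.89% with the block. Where a list count is given at an unadjusted p under 0.05, the number over all genes was 2597 of 13047. All lists were chosen with earlier results of these data known.

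Of 27 melanocyte lineage and pigment genes tested, 4 were positive and 0 negative, and with the block 14 and 4. Their median line difference was 0.59, from medians of 0.70 in COLO858 and 0.42 in MMACSF. The 4 were DCT, EDNRB, TRPM1 and PMEL, a melanosome matrix protein, and in each COLO858 rose. PMEL went from 65.9 and 63.3 to 236 and 249 FPKM in COLO858 and from 7947 and 7940.1 to 10313 and 11001 FPKM in MMACSF, a line difference of 1.47 ± 0.14 (SE, adjusted p = 0.00199). MITF, the lineage transcription factor, had a line difference of 0.59 ± 0.35 (SE, adjusted p = 0.435), which passed the threshold only with the block (adjusted p = 0.0024). BCAN, a neural proteoglycan, was lowest in the list, at −1.27 ± 0.29 (SE, adjusted p = 0.0436), and it rose in MMACSF from 60.9 and 45.3 to 244 and 179 FPKM.

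Of 28 neural crest, glial and neuronal genes, 4 were positive and 0 negative, and with the block 12 and 5. The median line difference was 0.74, with 0.88 in COLO858 and 0.29 in MMACSF. S100B, TUBA1A and MBP were among the 4. S100B (chromosome 21, 48018517 to 48025121), a calcium-binding protein of glia and melanocytes, rose from 113 and 113 to 444 and 468 FPKM in COLO858. It was at 857 and 782 FPKM in DMSO-treated MMACSF and 769.7 and 765 FPKM at 24 h, and the line difference was 2.10 ± 0.15 (SE, adjusted p = 0.000883). TUBA1A, a neuronal alpha tubulin, rose from 30.5 and 34.1 to 198 and 222 FPKM in COLO858 while its MMACSF groups overlapped, at 68.1 and 66.7 and 62.9 and 77.2 FPKM. Its line difference was 2.62 ± 0.21 (SE, adjusted p = 0.00114). TUBA1A and TUBA1B are near-identical, and the counting may have split reads between them.

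Other genes of the neural group that the study followed did not pass the line difference threshold at 24 h without the block. NGFR, a receptor for neurotrophins, went from 2.89 and 2.82 to 1.96 and 1.36 FPKM in COLO858. MMACSF had 3.86 and 2.35 FPKM under DMSO and 0.529 and 0.357 FPKM at 24 h, a fall that passed the threshold (−1.49, adjusted p = 0.0028). The line difference of NGFR was 0.94 ± 0.30 (SE, adjusted p = 0.116), so its positive value at 24 h came with a fall in MMACSF and no rise in COLO858. L1CAM, a neural adhesion molecule, had a line difference of 0.76 ± 0.26 (SE, adjusted p = 0.142), and 0.00162 was its adjusted p with the block. CNTN6, a contactin, was at 0.90 (adjusted p = 0.0416, with the block 0.00928) and rose in COLO858 by 1.07. MAP2 was at 0.76 (adjusted p = 0.272) and NCAM1 at −0.15 (adjusted p = 0.811). FYN, a Src family kinase, was at −0.58 (adjusted p = 0.179, with the block 0.00624).

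Of 41 core matrix and matricellular genes 9 were positive and 1 negative, and with the block 15 and 8. The median line difference was 0.09, near that of all genes, while the members ranged from −4.09 for THBS2 to 4.37 for THBS1. LAMA1, the laminin alpha 1 chain, fell in MMACSF from 37.1 and 35.2 to 12.5 and 14.7 FPKM and was at 38.0 and 36.9 and 38.9 and 38.8 FPKM in COLO858, a line difference of 1.40 ± 0.19 (SE, adjusted p = 0.00719). LAMC1, the laminin gamma 1 chain, rose in COLO858 from 61.6 and 68.9 to 136 and 148 FPKM. It was at 67.6 and 72.2 and then 81.5 and 95.7 FPKM in MMACSF, and its line difference of 0.78 ± 0.19 (SE, adjusted p = 0.0571) passed with the block (adjusted p = 0.00089). COL3A1, a fibrillar collagen, rose in COLO858 from 0.147 and 0.182 to 2.09 and 2.15 FPKM and was under 0.1 FPKM in MMACSF, a line difference of 1.43 ± 0.15 (SE, adjusted p = 0.00269). COL3A1 is also one of the 8 fibroblast markers, of which 4 were tested. LUM, a matrix proteoglycan, went from 5.30 and 8.27 to 13.8 and 17.6 FPKM in COLO858. Its line difference of 1.63 ± 0.36 (SE, adjusted p = 0.0394) passed with the block (adjusted p = 0.000296). The difference was larger than the rise in COLO858, since LUM also had a lower mean at 24 h in MMACSF. In MMACSF 0 of the 4 tested markers fell past the threshold. COL1A2, a fibrillar collagen chain, went the other way, from 2.63 and 2.61 to 0.725 and 0.247 FPKM in COLO858, with a line difference of −1.40 ± 0.26 (SE, adjusted p = 0.0205) that also passed with the block (0.00252). DCN, decorin, was listed at 0 in both DMSO libraries of COLO858 and at 0.225 and 0.107 FPKM at 24 h, with a line difference of 0.13 (adjusted p = 0.85). The 4 had a median line difference of 0.78, and the part of other cells in the rise of COL3A1 was not tested.

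Integrin and adhesion genes split by member. Of 33 tested 1 was positive and 3 were negative, and with the block 5 and 7, with a median of −0.10. ITGA4, the alpha 4 subunit, rose in COLO858 from 23.9 and 32.3 to 79.9 and 93.9 FPKM, and MMACSF went from 16.3 and 19.5 to 7.48 and 9.43 FPKM, a line difference of 2.61 ± 0.28 (SE, adjusted p = 0.00304). ITGA9, of the same alpha subfamily, went from 5.10 and 4.66 to 1.0076 and 0.797 FPKM in COLO858 and from 19.1 and 20.8 to 26.4 and 27.3 FPKM in MMACSF, a line difference of −2.04 ± 0.21 (SE, adjusted p = 0.00278). ITGB3, the beta 3 subunit, fell in COLO858 from 167 and 181 to 29.1 and 29.5 FPKM, with 63.8 and 75.3 and then 41.6 and 52.0 FPKM in MMACSF and a line difference of −1.97 ± 0.22 (SE, adjusted p = 0.00324). ITGA10 was at −1.77 and near absent in MMACSF. ITGB1, the common beta 1 subunit, had a line difference of −0.10 ± 0.36 (SE, adjusted p = 0.935). Of 22 metalloproteinases and inhibitors 2 were positive and 0 negative, and with the block 7 and 2, with a median of 0.11. They were TIMP3 and MMP14, a membrane-bound protease that rose in COLO858 by 1.47 and had a line difference of 1.91 ± 0.21 (SE, adjusted p = 0.00325).

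Of 25 genes of epithelial-mesenchymal transition, cadherins and mesenchymal genes 4 were positive and 3 negative, and with the block 4 and 9, with a median of −0.49. Their median changes were −0.11 in COLO858 and 0.03 in MMACSF. The 4 were PLAT, CLDN1, MYL9 and SNAI2, and the 3 included CDH2 and ACTA2. CDH2, N-cadherin, fell in COLO858 from 73.0 and 86.9 to 22.0 and 25.0 FPKM, with 9.84 and 12.003 and then 12.1 and 14.4 FPKM in MMACSF and a line difference of −1.98 ± 0.24 (SE, adjusted p = 0.00461). CLDN1, a tight junction claudin, and MYL9, a myosin light chain, rose in COLO858 by 1.69 and 2.02 and were below 1 FPKM in MMACSF.

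Of 24 receptor tyrosine kinases 1 was positive and 1 negative, and with the block 3 and 7, with a median of −0.37. Their median changes were −0.11 in COLO858 and 0.05 in MMACSF. MET, the receptor for hepatocyte growth factor, rose in COLO858 from 2.16 and 2.59 to 8.68 and 12.2 FPKM, and its MMACSF libraries were at 14.7 and 21.0 and then 10.5 and 13.4 FPKM. The line difference of MET was 2.27 ± 0.34 (SE, adjusted p = 0.00938). FGFR4, a fibroblast growth factor receptor, fell in COLO858 from 15.6 and 12.8 to 3.21 and 2.41 FPKM and stayed near 1 FPKM in MMACSF, a line difference of −2.01 ± 0.24 (SE, adjusted p = 0.00433). Of 22 growth factors for these receptors TGFA alone passed, and with the block 3 were positive and 5 negative, with a median of −0.35. The median changes of the growth factors were −0.28 in COLO858 and 0.01 in MMACSF.

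**Figure D4:**
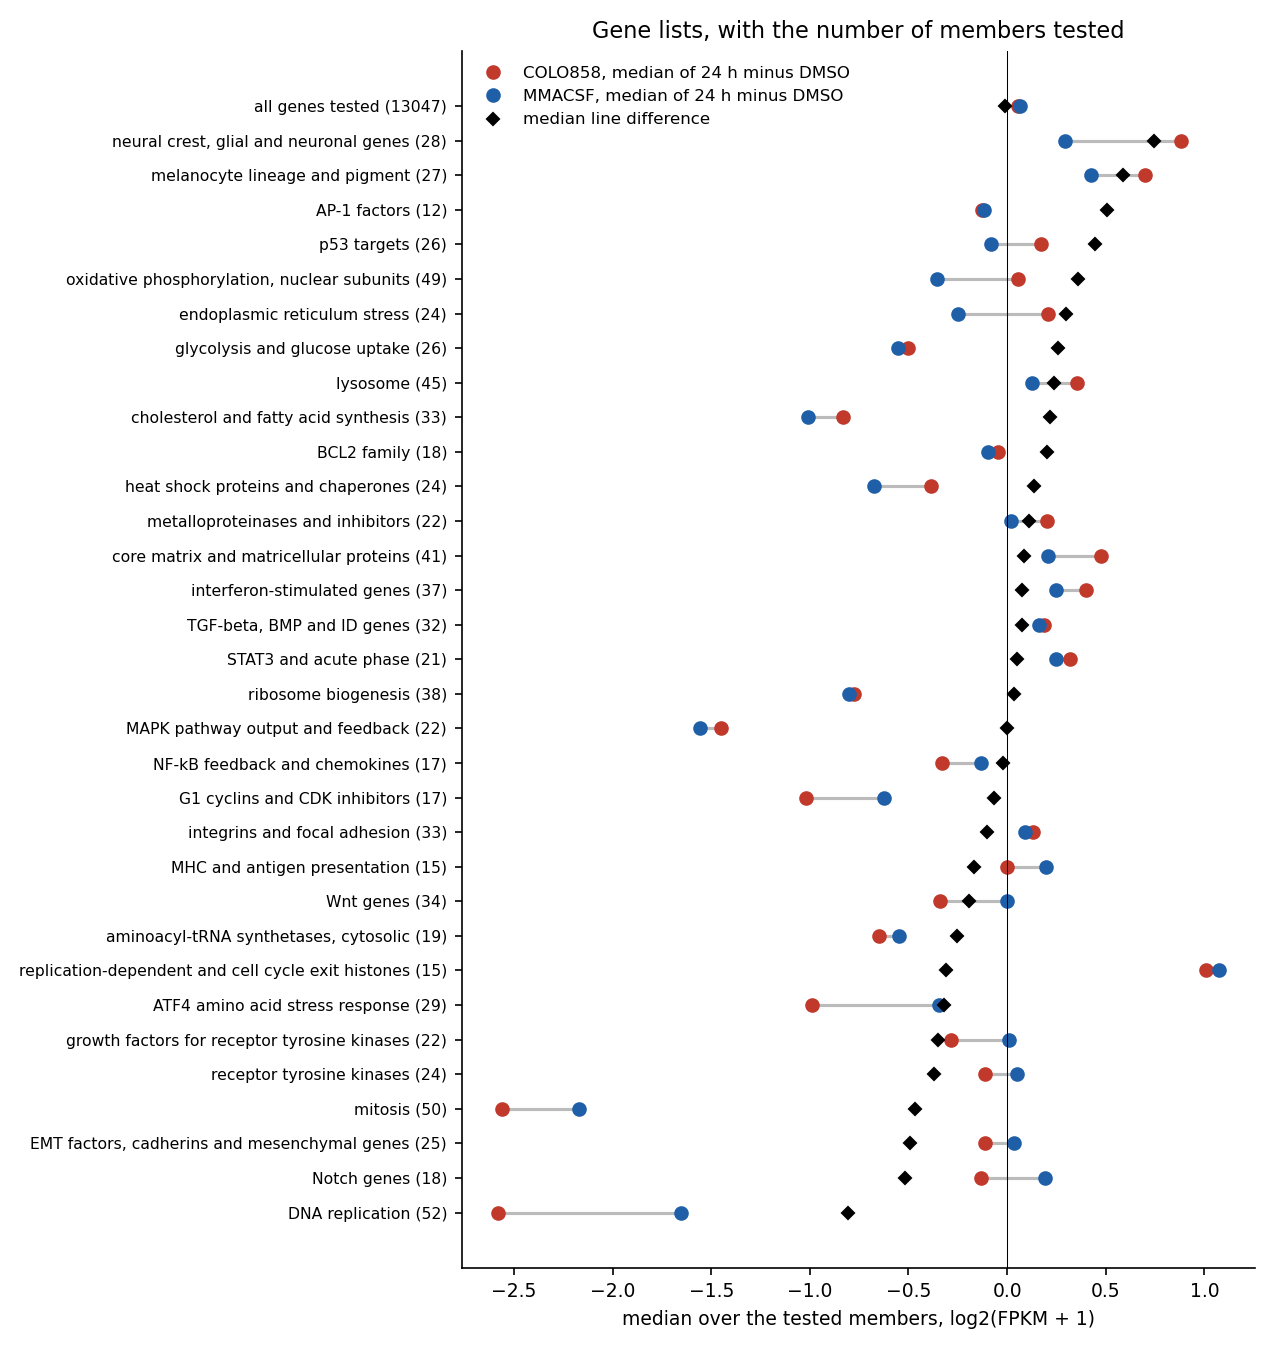
Median change from DMSO to 24 h over the tested members of each list in COLO858 (red) and MMACSF (blue) and the median line difference (black diamond), in log2(FPKM + 1), with the number of members tested in brackets. The medians of DNA replication genes lie at −2.58 and −1.65 and those of MAPK output genes at −1.45 and −1.56, and all genes tested stand at the top.

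Most MAPK pathway output and feedback genes fell in both lines, with close medians. Of 22 tested 0 passed the line difference threshold by limma, 13 had an unadjusted p under 0.05, and with the block 4 were positive and 6 negative. In COLO858 14 fell and in MMACSF 16, with medians of −1.45 and −1.56 and a median line difference of 0.00. SPRY4, a Sprouty feedback inhibitor, fell from 271 and 277 to 8.58 and 8.92 FPKM in COLO858 and from 35.1 and 36.4 to 1.92 and 2.28 FPKM in MMACSF, and its line difference of −1.25 ± 0.19 (SE, adjusted p = 0.0102) lay just outside the threshold. SPRY1 was lower at −1.57 (adjusted p = 0.0116, with the block 0.000797). ETV1 and ETV5, ETS transcription factors, were at 1.16 and 0.87 (adjusted p = 0.122 and 0.0619).

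Of 12 AP-1 factors MAFF alone passed, and with the block 5 were positive and 3 negative, with a median of 0.51. Their median changes were −0.13 in COLO858 and −0.12 in MMACSF, with 3 higher and 8 lower in COLO858 and 5 and 7 in MMACSF. JUN, an AP-1 subunit, rose in COLO858 from 0.956 and 0.643 to 17.5 and 12.8 FPKM and was at 11.4 and 9.03 and then 28.4 and 16.6 FPKM in MMACSF. The line difference came to 2.13 ± 0.39 (SE, adjusted p = 0.0211), which passed the threshold with the block (adjusted p = 0.000381). Of 17 NF-kB feedback and chemokine genes CXCL1 was positive and TNFAIP3 negative, and with the block 3 and 2, with a median of −0.02. Of 21 genes of STAT3 signaling and the acute phase 0 were positive and 3 negative, namely IL11, A2M and PIM1. With the block there were 2 and 5, and the median was 0.05. IL11, a cytokine, fell in COLO858 from 3.80 and 3.25 to 0.272 and 0.149 FPKM and was under 1 FPKM in MMACSF, a line difference of −1.96 ± 0.18 (SE, adjusted p = 0.00199). PIM1, a kinase, was at −1.60 ± 0.22 (SE, adjusted p = 0.00733), with a change of −1.82 in COLO858, which passed the threshold. STAT3 itself had a line difference of 0.75 (adjusted p = 0.0632, with the block 0.000995).

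Of 32 TGF-beta, BMP and ID genes TGFB2, a TGF-beta ligand, alone passed, and with the block 9 were positive and 5 negative, with a median of 0.07. It rose in COLO858 from 1.07 and 1.33 to 7.13 and 7.70 FPKM and was below 1 FPKM in MMACSF, a line difference of 1.78 ± 0.20 (SE, adjusted p = 0.00373). TGFB1 was at the other end of the list, at −1.66 ± 0.48 (SE, adjusted p = 0.0907), and passed with the block (adjusted p = 0.000855). Of 34 Wnt genes 0 passed by limma, with 9 at an unadjusted p under 0.05 and 1 positive and 7 negative with the block, and a median of −0.19. Of 18 Notch genes 0 passed, with 6 at an unadjusted p under 0.05 and 2 positive and 4 negative with the block, and a median of −0.52. The median changes of the Notch genes were −0.13 in COLO858 and 0.19 in MMACSF.

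Most DNA replication genes fell in both lines, with a lower median in COLO858. Of 52 tested 51 fell in COLO858 and 44 in MMACSF, with medians of −2.58 and −1.65. The line difference was negative in 48 of 52, against 6679 of 13047 for all genes, with a median of −0.81. Of these 0 passed upward and 2 downward, and with the block 2 and 24. The 2 were MCM7 and MCM3, subunits of the replicative helicase. MCM7 (chromosome 7, 99689856 to 99699563) fell from 361 and 292 to 40.5 and 37.8 FPKM in COLO858 and from 107 and 84.5 to 38.8 and 36.5 FPKM in MMACSF, a line difference of −1.70 ± 0.23 (SE, adjusted p = 0.00709). At 24 h the lines stood at like listed levels of MCM7, from unlike levels under DMSO. MCM3 changed by −2.80 in COLO858 and −1.47 in MMACSF, a line difference of −1.33 ± 0.17 (SE, adjusted p = 0.006). RRM2 and TK1, enzymes of nucleotide supply, leaned the other way, at 0.71 and 0.93 (adjusted p = 0.261 and 0.123), and passed with the block (0.00812 and 0.00124).

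Mitosis genes fell in both lines, 50 of 50 in COLO858 and 45 in MMACSF, with medians of −2.56 and −2.17. Of these 0 passed the line difference threshold by limma, 10 had an unadjusted p under 0.05, and with the block 0 were positive and 11 negative, with a median line difference of −0.47. MKI67, the proliferation antigen, fell from 15.9 and 19.8 to 2.47 and 2.91 FPKM in COLO858 and from 10.0 and 11.0 to 1.04 and 1.37 FPKM in MMACSF. This gave a line difference of 0.04, with a 95% interval from −0.55 to 0.62. Of 17 G1 cyclins and inhibitors CDKN2B, the inhibitor p15, alone passed, at −1.65 ± 0.24 (SE, adjusted p = 0.00937), with a change of −2.01 in COLO858, where it fell. With the block 2 of the 17 were positive and 6 negative, and their median was −0.07. CDKN1A, the inhibitor p21, was at 0.86 (adjusted p = 0.0323, with the block 0.000569), with a change of −0.77 in MMACSF, where it fell.

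Nuclear-encoded subunits of oxidative phosphorylation had a small positive line difference. It was positive in 48 of 49 genes, against 6368 of 13047 for all genes, with a median of 0.36. Their median change was 0.05 in COLO858 and −0.36 in MMACSF, where 43 of 49 were lower and 4 fell past the threshold. By limma 0 of 49 passed the line difference threshold, 18 had an unadjusted p under 0.05, and with the block 21 were positive and 0 negative. The highest was ATP5G1, an ATP synthase subunit, which fell in MMACSF from 436 and 411 to 134 and 165 FPKM. COLO858 had 346 and 338 and then 270.3 and 274 FPKM, and the line difference was 1.18 ± 0.18 (SE, adjusted p = 0.0107), past the threshold with the block (adjusted p = 0.000862).

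Of 26 glycolysis genes PFKFB4 was positive and HK2, a hexokinase, negative, and with the block 10 and 4, with a median of 0.26. HK2 fell in COLO858 from 17.7 and 17.2 to 3.09 and 3.32 FPKM and stood at 25.8 and 24.9 and then 17.0 and 17.8 FPKM in MMACSF, a line difference of −1.62 ± 0.19 (SE, adjusted p = 0.00424). Of 33 cholesterol and fatty acid genes 12 fell and 1 rose in COLO858, and 17 fell and 0 rose in MMACSF, with median changes of −0.83 and −1.01. TM7SF2 alone passed the line difference threshold, and with the block 8 were positive and 4 negative, with a median line difference of 0.22. TM7SF2, a sterol reductase, rose in COLO858 from 14.2 and 11.4 to 33.3 and 25.1 FPKM and fell in MMACSF from 9.15 and 9.00 to 3.65 and 3.82 FPKM, a line difference of 2.22 ± 0.26 (SE, adjusted p = 0.00422).

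Amino acid stress genes had a lower median change in COLO858. Of 29 genes of the ATF4 response 0 passed upward and 2 downward, and with the block 4 and 12. The medians were −0.99 in COLO858 and −0.34 in MMACSF, with a median line difference of −0.32. ATF4, the transcription factor, fell in COLO858 from 461 and 485 to 227 and 248 FPKM, with 242 and 220.4 and then 279 and 279.6 FPKM in MMACSF and a line difference of −1.27 ± 0.16 (SE, adjusted p = 0.00483). ASNS, asparagine synthetase, fell in COLO858 from 73.0 and 91.9 to 18.5 and 21.3 FPKM and stayed near 1 FPKM in MMACSF, a line difference of −1.86 ± 0.25 (SE, adjusted p = 0.00677). DDIT3, which encodes CHOP, leaned the other way, at 1.34 (adjusted p = 0.0113, with the block 0.000633). Of 19 cytosolic aminoacyl-tRNA synthetases 0 passed, with 5 at an unadjusted p under 0.05 and 1 positive and 4 negative with the block, and a median of −0.25.

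Of 24 endoplasmic reticulum stress genes 21 had a positive line difference, with a median of 0.30 from medians of 0.21 in COLO858 and −0.25 in MMACSF. By limma 0 passed, 9 had an unadjusted p under 0.05, and with the block 11 were positive and 0 negative. HSPA5, the main chaperone of that compartment, rose in COLO858 from 172 and 207 to 291 and 326 FPKM. MMACSF had 208 and 232 and then 160.2 and 161 FPKM, and the line difference of 1.15 ± 0.19 (SE, adjusted p = 0.0142) passed with the block (adjusted p = 0.000247). MANF, a secreted stress factor, was at 1.10 (adjusted p = 0.0123, with the block 0.000431), with a change of −0.91 in MMACSF, where it fell. Of 45 lysosome genes 2 were positive and 0 negative, and with the block 12 and 3, with a median of 0.24. SQSTM1, an autophagy receptor, was among them. It fell in MMACSF (a change of −0.76) and had a line difference of 1.15.

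The other lists held no gene past the line difference threshold by limma. With an unadjusted p under 0.05 there were 8 of 26 p53 targets, 4 of 18 BCL2 family genes, 11 of 37 interferon-stimulated genes and 4 of 24 heat shock genes. Over all genes it was 2597 of 13047. The numbers were 1 of 38 for ribosome biogenesis, 1 of 15 for MHC and antigen presentation and 5 of 15 for histones. With the block the p53 targets had 9 positive and 1 negative, the interferon-stimulated genes 6 and 1, the heat shock genes 7 and 2 and the BCL2 family 5 and 2. Ribosome biogenesis had 2 and 1, MHC and antigen presentation 0 and 1, and the histones 2 and 2. The median line differences were 0.45 for the p53 targets, 0.20 for the BCL2 family, 0.08 for the interferon-stimulated genes and 0.14 for the heat shock genes. They were 0.03 for ribosome biogenesis, −0.17 for MHC and antigen presentation and −0.31 for the histones. The p53 targets had median changes of 0.17 in COLO858 and −0.08 in MMACSF. BCL2L11, which encodes the pro-apoptotic protein BIM, rose in COLO858 from 3.39 and 6.09 to 37.1 and 45.9 FPKM and in MMACSF from 3.42 and 4.09 to 10.2 and 14.7 FPKM. The resulting line difference was 1.44 ± 0.39 (SE, adjusted p = 0.0758), past the threshold with the block (adjusted p = 0.00156).

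A shared response can be stated for 36 genes, which passed the threshold the same way in both lines and whose line difference had a 95% interval within ±0.5. Of these 29 fell and 7 rose. CCND1, cyclin D1, fell from 418 and 466 to 48.1 and 50.4 FPKM in COLO858 and from 168 and 184 to 21.0 and 18.8 FPKM in MMACSF. Its line difference was −0.06, with an interval from −0.48 to 0.36. TNC, the matrix protein tenascin-C, changed by −2.23 in COLO858 and −2.29 in MMACSF, with an interval from −0.31 to 0.43. The other leading falls were TOMM5, of the mitochondrial import pore, MTHFD1, an enzyme of folate metabolism, and PRPS1, an enzyme of nucleotide synthesis, with changes of −1.13, −1.14 and −1.11 in COLO858. The leading rises were MAN2A2, an enzyme of glycan processing, which rose by 1.43 in COLO858 and 1.50 in MMACSF, and SH3YL1, PIR, MYO10 and KREMEN1, which rose by 1.06, 0.83, 0.76 and 0.74 in COLO858.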

How the data were processed

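RNA of the 8 libraries used here, 2 each of COLO858 and MMACSF in DMSO or in vemurafenib for 24 h, was sequenced after a stranded mRNA preparation to which ERCC spike-in was added. The authors mapped reads to hg19 with TopHat and ran Cuffdiff, and deposited FPKM values in 1 table per line. The annotation, the tool versions and the scaling of the libraries are not given in the sources used here. Whole reads could not be recovered from the FPKM values, so the depth per library and its precision are unknown.

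Tables were joined by gene symbol. A linear model of 4 groups was fitted to log2(FPKM + 1) with limma 3.58.1 in R 4.3.3, with empirical Bayes moderation and a trend, over genes whose mean reached 1 FPKM in at least 1 group. The line difference was the interaction contrast, and each line's change was taken from the same fit. Tests were two-sided, with Benjamini-Hochberg adjustment over the 13047 genes and a threshold of 0.01. The constant of 1 FPKM understates changes of low genes. Small RNA genes (361 of 13408 past the level filter) were left out. After the main fit, the same model was run on values simulated from its group means and fitted spread, with each library drawn independently. Such values do not carry the joint deviation of same-numbered libraries described below, and the outcome is not reported here.

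Libraries with the same number deviated together, with correlations of 0.768 in COLO858 and 0.626 in MMACSF, so replicate numbers pair the samples. The labels do not say what they share, and the hint comes from the data. The study's methods use no block, and the blocked fit is given as an alternative. Others were an added constant of 0.1, a minimum of 10 FPKM or none, small RNA genes kept, all 12 libraries, median-ratio rescaling, no trend, each line fitted alone, the study's selection rule, a threshold of 0.05, and each library left out.

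The named genes were the 10 largest positive and negative line differences past the threshold, the 5 largest in each class of which line moved, and the 2 highest and 2 lowest of each list. Members of a list past the threshold were added where they numbered 8 or fewer, as were genes the study follows and the leading shared changes. The text describes those that carry each result. A few genes are not reported here. The comparison, the gene lists and the promoters were chosen with earlier results of these data known. Gene positions come from the GENCODE v44 annotation on GRCh37. The 48 h libraries enter only the alternative with 12 libraries.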

Additional observations from a re-analysis of the deposited data

Results flagged for a closer look

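Differences between the lines under the same drug drew attention first as counts. The limma interaction was past the threshold for 127 genes with a more positive and 144 with a more negative 24 h response in COLO858. These are the counts described in the report, and their cause was not tested.

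In 16 named genes the lines moved past the threshold in opposite directions, and the interaction was past it as well. The line differences on the log2 scale were 5.05 for LYPD1, 4.73 for NAV2, 3.09 for TIMP3, 2.78 for IL1RAP, 2.37 for PLAT, 2.36 for DAAM2, 2.22 for TM7SF2, 1.72 for QPCT, 1.60 for CD9 and 1.58 for C5orf45. In these COLO858 rose and MMACSF fell. The reverse held for IGFBP3 at −3.29, KIAA1199 at −3.01, ACOX2 at −2.57, ABLIM3 at −2.19, MATN3 at −1.98 and B3GAT1 at −1.91. With 2 libraries per group no search for outlying libraries was made.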

How the results depend on the processing

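None of the 271 genes changed sign in any of the 17 alternative fits of the line difference that tested it. The sign could change only with the other constant, the rescaling or a library left out. The remaining fits give each gene the same line difference as the main fit and so could not change its sign. The counts did move. More positive and more negative genes numbered 72 and 55 with a constant of 0.1 FPKM, 262 and 303 with all 12 libraries, and 84 and 89 with small RNA genes kept. They were 1106 and 1160 with the replicate block, and 396 and 478 at an adjusted p under 0.05. The study's selection rule sets no test on the difference. Applied here to limma values in place of those of Cuffdiff, that rule gave 355 and 458. A minimum of 10 FPKM left 85 positive and 66 negative genes among 8031 tested. Restricting the test to the 11301 genes at 1 FPKM or more in each line, an alternative chosen after seeing the data, left 51 and 34. Which direction was the larger thus depended on the constant, the minimum, that restriction and the libraries used, since the positive genes were the more numerous in 7 of the 8 fits that left out 1 library.

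Of the 271 genes 121 stayed past the threshold with the constant of 0.1, 156 with small RNA genes kept, 193 with no minimum, 228 without a trend, 248 after rescaling and 269 with all 12 libraries. With each of the 8 libraries left out in turn the counts were 18 to 42 positive and 9 to 41 negative, the lone library being assumed to vary like the other groups. Of the 271 genes 25 stayed past the threshold whichever library was left out, 16 positive and 9 negative, among them LYPD1, NAV2, THBS1, TIMP3, NOV, S100B, PLAT, CXCL1, MBP, EDN3, THBS2, NPR1, TGFA, IGFBP3 and KIAA1199. The other 246 lost the call without at least 1 library, with fewer samples in the fit.

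In COLO858 the rises and falls at 24 h numbered 347 and 528 when that line was fitted alone and 3292 and 3032 with the replicate block, and 391 to 822 and 634 to 1018 with a library left out. In MMACSF the rises and falls numbered 0 and 0 when that line was fitted alone by limma, where 4181 genes had an unadjusted p under 0.05 and 1641 an adjusted p under 0.05. With the block there were 2724 and 2404, with a library left out 114 to 478 and 237 to 609. The rises in MMACSF were 988 with all 12 libraries and 393 with a minimum of 10 FPKM. The causes of these shifts were not tested. The replicate block removed none of the 271 calls. It leaves each line difference the same and takes out the deviation that same-numbered libraries share, so keeping the calls was likely beforehand.

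The median line difference kept its sign in all 17 fits for 21 of the 32 lists, among them DNA replication, mitosis, melanocyte lineage, neural crest and oxidative phosphorylation. The fits with the block, without a trend, with all 12 libraries, with small RNA genes kept and with no minimum could not change a median. They leave the line difference of each tested member the same. Among the others, the sign differed in 5 of 17 for MAPK output, in 6 for STAT3 and in 1 for the mesenchymal list. Depth is unknown, which limits what can be said of genes near 1 FPKM.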

Other observations

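When the small RNA genes were kept, 361 of them were tested and 17 passed the line difference threshold by limma, with 40 at an unadjusted p under 0.05. In that fit 173 of all 13408 genes passed. In the main fit, without small RNA genes, 2597 of 13047 had an unadjusted p under 0.05. The share of small RNA genes in the summed FPKM was higher in the replicate 2 library of each group, and whether this bears on the 17 was not tested.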
